A study of Capsicum annuum and Capsicum annuum
Solanum lycopersicum with 48 samples.

Results

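The pepper:tomato heterograft, a pepper scion (Capsicum annuum var. Big Dipper) on a tomato stock (Solanum lycopersicum var. M82), was compared at 5 and 1 days after grafting (DAG). Its members were the libraries titled as this graft at these times, 4 at 5 DAG and 4 at 1 DAG, which made 8 of the 48 libraries of the series. Seedlings were wedge grafted, and a junction held 1 cm of scion and 1 cm of stock, so that each library contained RNA of both species. Each library came from 1 junction of an independent plant. Grafted plants stood in the dark for 3 days and returned to light on day 4, which means that junctions at 5 DAG had been in light and junctions at 1 DAG had not. Time after grafting and light cannot be told apart in this comparison. The tomato:pepper heterograft and the tomato and pepper self-grafts, sampled at the same times and under the same regime, served as references. Tomato self-graft libraries carry Capsicum annuum as their organism, against their titles, which were followed here.

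Messenger RNA was measured as FPKM, fragments normalized for transcript length and library size, for 33604 tomato and 30088 pepper genes. The tables hold 1 value for each group of 4 libraries, so there is no spread between replicates, no standard deviation and no test for any value below. Depth per library is unknown. A gene was called past 2-fold where the ratio of FPKM + 1, 5 over 1 DAG, was at least 1 or at most -1 on the log2 scale, and this ratio understates the change of genes with low FPKM. Higher and lower describe the group values only.

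When a stem is cut and rejoined, wounded cells first mount a stress response. Callus cells then divide and fill the wound, and a cambium forms from which xylem and phloem strands can join scion and stock. In Arabidopsis, the peptide TDIF and its receptor PXY maintain the cambium through the transcription factor WOX4, and hold back xylem formation through BIN2 family kinases and BES1. NAC transcription factors such as VND6, VND7 and NST1 switch on vessel formation and secondary walls. Tomato and pepper heterografts are known as incompatible grafts, whose vascular strands fail to join.

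Tomato genes supplied 23.1% of summed FPKM in pepper:tomato junctions at 5 DAG, against 17.9% at 1 DAG. The tomato share of tomato:pepper was 49.2% at 5 DAG, against 59.5% at 1 DAG. Junctions at 3 DAG stood apart, with 51.7% of FPKM from tomato in pepper:tomato and 29.7% in the reciprocal graft. This is the inverse of the order at 1 and 5 DAG, and the libraries of 3 DAG enter no comparison here. The labels of the heterografts were followed as given, and whether they are right at each time was not tested. More cells of a species and more RNA per cell cannot be told apart in such bulk tissue. The number of tomato genes at 1 FPKM or more was 15885 at 5 DAG and 15363 at 1 DAG, and that of pepper genes was 15835 at 5 DAG and 16179 at 1 DAG. Because FPKM was scaled over both species together, ratios were also taken after each species had been set to a common total, or with the species median subtracted.

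Tomato genes of the stock were more often higher at 5 DAG, while pepper genes of the scion were more often lower. Of 16816 tomato genes with 1 FPKM or more in at least 1 of the groups, 1945 (11.6%) were higher by 2-fold or more at 5 DAG and 780 (4.64%) were lower. Of 16658 pepper genes, 803 (4.82%) were higher and 1335 (8.01%) were lower. The median log2 ratio over all genes was 0.11 in tomato and -0.18 in pepper.

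This split depended on the scaling. Rescaled to the tomato total, 1256 tomato genes (7.47%) were higher and 1426 (8.48%) lower, and the median was -0.19. Centred on the tomato median, 1640 (9.75%) were higher and 955 (5.68%) lower. In pepper, 879 genes (5.28%) were higher and 1173 (7.04%) lower when rescaled to the pepper total, with a median of -0.12. Centring turned the pepper split round, with 1125 genes (6.75%) higher and 882 (5.29%) lower. The direction of the whole transcriptome of a species was therefore not fixed by these values. Medians of the cambium and xylem lists and of the modules are given below also relative to the median of their species. Those of the regulator families are given as deposited only.

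**Figure D1:**
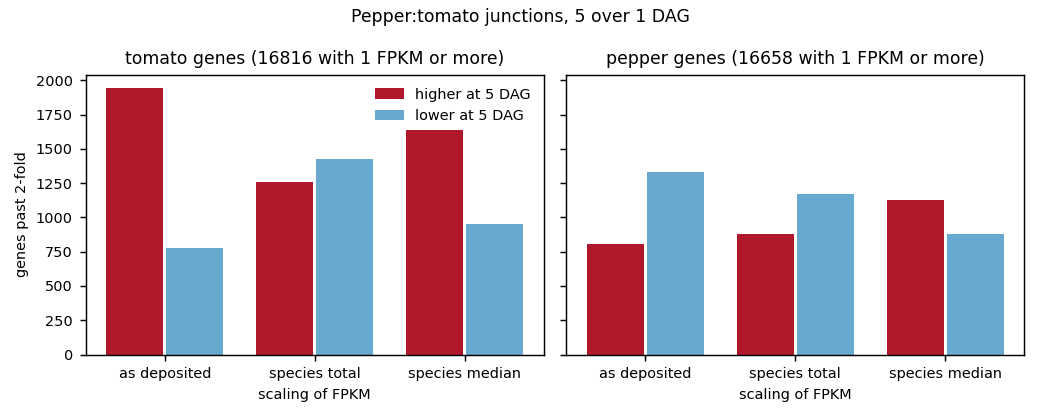
Number of tomato genes (left, of 16816) and pepper genes (right, of 16658) past 2-fold in pepper:tomato junctions at 5 over 1 DAG, higher in red and lower in blue, under 3 scalings of FPKM on the horizontal axis. Tomato has 1945 higher and 780 lower genes as deposited but 1256 and 1426 on its own total, and pepper turns from 803 higher and 1335 lower to 1125 and 882 when centred.

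The genes of largest change are described next. They were past 2-fold as deposited and under both rescalings, and they are given by identifier only. In tomato, the 9 genes of largest increase that were named by the rule reached between 228 and 770 FPKM at 5 DAG, against 0 to 2.53 FPKM at 1 DAG. Solyc07g043400 had 770 FPKM at 5 DAG, against 2.53 FPKM at 1 DAG. Solyc08g067500 had 415 FPKM at 5 DAG, against 0.475 FPKM at 1 DAG. Solyc04g014350 had 442 FPKM at 5 DAG, Solyc05g046180 had 262 FPKM and Solyc07g066360 had 237 FPKM, and all 3 were listed at 0 at 1 DAG. All 9 stood below 3 FPKM in the stock at 1 DAG.

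Some of these genes were also high in other grafts. Solyc04g014350, Solyc08g067500, Solyc05g046180 and Solyc07g066360 were high in the tomato self-graft at 5 DAG as well, with 400 FPKM, 221 FPKM, 268 FPKM and 402 FPKM. At 1 DAG the self-graft had between 0.235 and 7.35 FPKM of these 4 genes. By contrast, Solyc09g084460 had 287 FPKM in pepper:tomato at 5 DAG and 0.0284 FPKM at 1 DAG, but 8.44 FPKM at 5 DAG and 0.0220 FPKM at 1 DAG in the tomato self-graft. In tomato:pepper it had 0.608 FPKM at 5 DAG and was listed at 0 at 1 DAG. Solyc03g020060 had 250 FPKM at 5 DAG and 0.181 FPKM at 1 DAG in pepper:tomato, against 7.46 FPKM and 2.18 FPKM at these times in the self-graft. Levels of separate tables are not on 1 scale, and the differences between grafts were not tested.

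Tomato genes of largest decrease were expressed at moderate levels at 1 DAG. Solyc09g092520 had 2.17 FPKM at 5 DAG, against 107 FPKM at 1 DAG, and Solyc02g079460 had 1.94 FPKM against 64.1 FPKM. Solyc07g053370 was listed at 0 at 5 DAG and had 34.0 FPKM at 1 DAG. Among genes of 100 FPKM or more, Solyc03g006490 had 14.7 FPKM at 5 DAG, against 152 FPKM at 1 DAG, and Solyc03g113910 had 18.5 FPKM against 162 FPKM. Changes of this size were less frequent downward than upward, with 41 tomato genes lower by 8-fold or more on the log2(FPKM + 1) scale and 203 higher. On the tomato total these counts were 61 lower and 155 higher.

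In pepper, changes of 8-fold or more were rare in both directions, with 25 genes higher and 29 lower. CA04g20280 was the exception in size. It had 9707 FPKM at 5 DAG, against 66.1 FPKM at 1 DAG, which was 1.03% of all pepper FPKM at 5 DAG and 0.00667% at 1 DAG. The pepper self-graft had 11700 FPKM of it at 5 DAG and 51.9 FPKM at 1 DAG, whereas tomato:pepper had 360 FPKM and 46.9 FPKM. CA04g02730 had 1210 FPKM at 5 DAG, against 97.7 FPKM at 1 DAG. CA02g29600 had 34.8 FPKM at 5 DAG, against 0.254 FPKM at 1 DAG. CA11g00870 had 23.5 FPKM at 5 DAG, against 0.169 FPKM at 1 DAG, while the pepper self-graft had 0.364 FPKM and 0.133 FPKM.

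The pepper genes of largest decrease included a strongly expressed one. CA05g06720 had 200 FPKM at 5 DAG, against 2477 FPKM at 1 DAG. CA08g03270 had 18.8 FPKM at 5 DAG, against 246 FPKM at 1 DAG, and CA09g18720 had 0.182 FPKM against 27.1 FPKM. These genes were lower at 5 DAG in the pepper self-graft as well, with 1267 FPKM against 3528 FPKM for CA05g06720, 150 FPKM against 698 FPKM for CA08g03270 and 1.07 FPKM against 16.8 FPKM for CA09g18720.

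**Figure D2:**
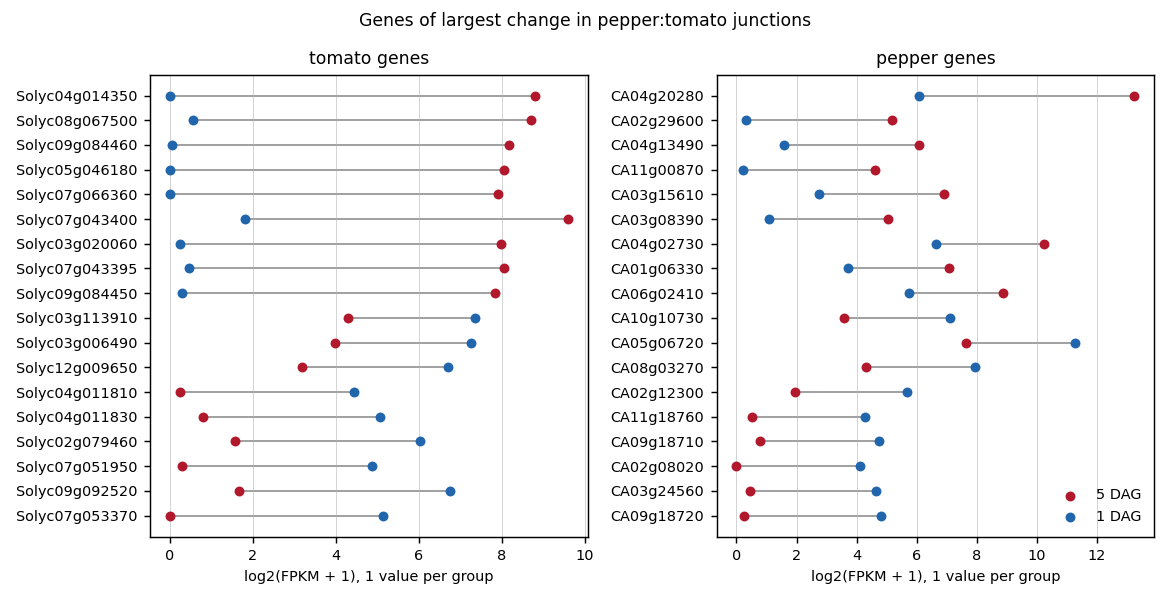
Expression of the 18 tomato genes (left) and 18 pepper genes (right) of largest change in pepper:tomato junctions, as log2(FPKM + 1) on the horizontal axis, with 5 DAG in red and 1 DAG in blue, 1 value per group of 4 libraries. Most of the tomato genes that were higher start near 0 at 1 DAG, and CA04g20280 reaches 9707 FPKM at 5 DAG.

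Tomato genes of large increase lay close together in the genome. Tomato identifiers number the genes along each chromosome, and 72 of the 203 tomato genes higher by 8-fold or more (35.5%) had another such gene within 5 identifiers. Over all 16816 tomato genes the share with such a neighbour was 5.74%. One run on chromosome 7, from Solyc07g043390 to Solyc07g043500, held 7 such genes among 13 identifiers, and their levels were 32.4 to 770 FPKM at 5 DAG, against 0.139 to 9.22 FPKM at 1 DAG. A run on chromosome 4, from Solyc04g014280 to Solyc04g014350, held 6 among 8 identifiers, with 9.76 to 442 FPKM at 5 DAG. At 1 DAG, 5 of these 6 were listed at 0 and Solyc04g014330 had 0.0988 FPKM. A listed 0 in such a table can be a failed estimate, which was not tested. In tomato:pepper the 6 genes had 2.07 to 80.0 FPKM at 5 DAG, against 3.66 to 85.2 FPKM at 1 DAG, and 5 of them had the opposite sign there, with log2 ratios from -0.60 to -2.25.

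Another run, on chromosome 9 from Solyc09g083440 to Solyc09g089510, held 7 such genes among 8 identifiers. They had 31.9 to 287 FPKM at 5 DAG in pepper:tomato, against 0 to 1.62 FPKM at 1 DAG. In the tomato self-graft the same 7 genes had 0.570 to 16.3 FPKM at 5 DAG and at most 6.09 FPKM at 1 DAG. In tomato:pepper none exceeded 0.959 FPKM at 5 DAG.

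Genes that were lower also formed a run, on chromosome 4 from Solyc04g011800 to Solyc04g011860. Its 5 genes had 0.176 to 0.738 FPKM at 5 DAG, against 15.0 to 32.4 FPKM at 1 DAG. All 5 were also lower in the tomato self-graft, with log2 ratios from -1.22 to -2.62, and in tomato:pepper, from -2.35 to -3.71. The share of tomato genes lower by 8-fold or more with such a neighbour was 22.0%, against 1.17% over all tomato genes. In pepper, 0 of 25 genes that were higher and 2 of 29 that were lower had one. Neighbours with near-identical sequence can share reads, so the split of FPKM within a run is uncertain.

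The genes to which the study assigned a part in the cambium and xylem pathway, 45 in tomato and 32 in pepper, are given next. In tomato 38 of the 45 had 1 FPKM or more, of which 2 were higher, 0 lower and 36 within 2-fold, beside the 11.6% and 4.64% of all tomato genes. Their median log2 ratio was 0.17, which is 0.07 above the median of all tomato genes. On the tomato total 1 was higher and 3 lower, and the median was -0.12, while 6 were higher and 1 lower with a pseudocount of 0.1 FPKM. In pepper 29 of the 32 had 1 FPKM or more, of which 1 was higher and 3 lower, beside 4.82% and 8.01% of all pepper genes, with a median of -0.31, or -0.13 relative to all pepper genes. The pepper counts are near those shares and say nothing particular to the list.

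The ligand and its receptors were within 2-fold on the log2(FPKM + 1) scale. Tomato TDIF (Solyc09g061410), the peptide precursor that is read by PXY, had 230 FPKM at 5 DAG, against 128 FPKM at 1 DAG, a log2 ratio of 0.84 that was 0.45 on the tomato total. Both tomato PXY genes were within 2-fold, with 6.46 FPKM against 5.42 FPKM for Solyc03g093330 and 6.12 FPKM against 5.52 FPKM for Solyc05g051640 at 5 and 1 DAG. In pepper, CA03g15770 (PXY) had 5.13 FPKM at 5 DAG, against 6.34 FPKM at 1 DAG. CA05g14410 (PXY) had 6.83 FPKM at 5 DAG, against 5.61 FPKM at 1 DAG. MOL1, a receptor-like kinase of the cambium in Arabidopsis, had opposite signs in the species, with log2 ratios of 0.93 in tomato (Solyc07g005010) and -0.72 in pepper (CA07g02560), neither past 2-fold. Pepper ER (CA08g03060), a receptor kinase of stem growth in Arabidopsis, had 1.97 FPKM at 5 DAG, against 4.67 FPKM at 1 DAG, a log2 ratio of -0.93.

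WOX4, which maintains cambium divisions, was within 2-fold in both species. Tomato WOX4 (Solyc04g078650) had 16.8 FPKM at 5 DAG, against 10.5 FPKM at 1 DAG, a log2 ratio of 0.63. Pepper WOX4 (CA04g18420) had 38.6 FPKM at 5 DAG, against 29.0 FPKM at 1 DAG, a log2 ratio of 0.40. The pepper gene was past 2-fold in the pepper self-graft, with 133 FPKM at 5 DAG and 56.5 FPKM at 1 DAG. It was past 2-fold in tomato:pepper too, with 99.4 FPKM at 5 DAG and 37.3 FPKM at 1 DAG, a log2 ratio of 1.39. The tomato gene was within 2-fold in its self-graft, at a log2 ratio of 0.43, and in tomato:pepper, at 0.62. The signs of both WOX4 ratios were the same under each scaling. WOX14, a related homeobox gene, was likewise within 2-fold, at 0.52 in tomato (Solyc02g082670) and -0.15 in pepper (CA02g19960), and the pepper value became 0.04 after centring.

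LBD4, which marks the boundary of the cambium in Arabidopsis, varied most among the cambium genes of pepper. Pepper has 2 genes of this name in the list, and they moved apart. CA02g00820 had 11.0 FPKM at 5 DAG, against 0.955 FPKM at 1 DAG, and CA12g22480 had 8.85 FPKM at 5 DAG, against 82.8 FPKM at 1 DAG. Both had the same direction in the pepper self-graft, with log2 ratios of 2.49 and -1.34. In tomato, Solyc02g069440 was at 6.85 FPKM at 5 DAG, against 2.87 FPKM at 1 DAG, a log2 ratio of 1.02 that was 0.71 on the tomato total and 0.92 after centring. Pepper LHW (CA11g16160), a bHLH factor of early vascular cells in Arabidopsis, had 45.3 FPKM at 5 DAG, against 128 FPKM at 1 DAG. The tomato genes named LHW were within 2-fold, at 0.18 for Solyc06g074110 and -0.47 for Solyc11g068960.

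Among the NAC factors of xylem, NST1 was past 2-fold in tomato. Tomato NST1 (Solyc10g005010), a switch of secondary wall formation, had 7.50 FPKM at 5 DAG, against 0.197 FPKM at 1 DAG. Pepper NST1 (CA11g08290) had 0.388 FPKM at 5 DAG, against 1.26 FPKM at 1 DAG, and was within 2-fold on the log2(FPKM + 1) scale. Tomato NST1 was also higher in the tomato self-graft, with 5.51 FPKM at 5 DAG and 0.911 FPKM at 1 DAG. Pepper NST1 had 0.558 FPKM at 5 DAG and 1.28 FPKM at 1 DAG in the pepper self-graft. The genes named VND6 and VND7, which specify vessels, were at 2.14 FPKM or less in both species at both times. None was past 2-fold on the log2(FPKM + 1) scale, which understates change at such levels. Tomato VND6 (Solyc06g034340) had 1.80 FPKM at 5 DAG, against 0.472 FPKM at 1 DAG, a log2 ratio of 0.93. Tomato NST2 (Solyc08g008660) had 0.796 FPKM against 0.0266 FPKM, below the limit of 1 FPKM at both times.

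The stress transcription factors of the list, which act in wound and defence responses, had log2 ratios from -0.86 to 0.59 in the tomato stock. Of 12 in the list 10 had 1 FPKM or more and 0 were past 2-fold, beside 11.6% of all tomato genes higher and 4.64% lower. For 10 genes a count of 0 is near those shares and says nothing particular to these factors. Of the same 10, 4 were lower by 2-fold or more in the tomato self-graft, where 5.87% of all tomato genes were lower and 6.72% higher. In tomato:pepper 5 of the 10 were lower and 0 higher. Their median there was -1.04, beside -0.28 over all tomato genes. The lowest ratio was that of WRKY46 (Solyc01g095630), with 7.43 FPKM at 5 DAG, against 14.3 FPKM at 1 DAG, which was past 2-fold at -1.21 on the tomato total. STZ (Solyc04g077980), a zinc finger repressor, had 7.40 FPKM at 5 DAG, against 8.44 FPKM at 1 DAG in pepper:tomato, but 16.7 FPKM against 48.1 FPKM in the tomato self-graft. WRKY33 (Solyc06g066370), a defence regulator, had 10.2 FPKM at 5 DAG, against 10.7 FPKM at 1 DAG in pepper:tomato, but 33.5 FPKM against 71.9 FPKM in the self-graft. The log2 ratios of these STZ and WRKY33 genes were -0.52 and -0.43 on the tomato total in pepper:tomato, and -1.48 and -1.08 in the self-graft. FPKM levels depend on the share of tomato in a graft and are not comparable between grafts. The difference between the ratios was not tested. In pepper, 1 of 7 was past 2-fold, WRKY46 (CA08g08240), with 16.7 FPKM at 5 DAG, against 79.3 FPKM at 1 DAG.

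**Figure D3:**
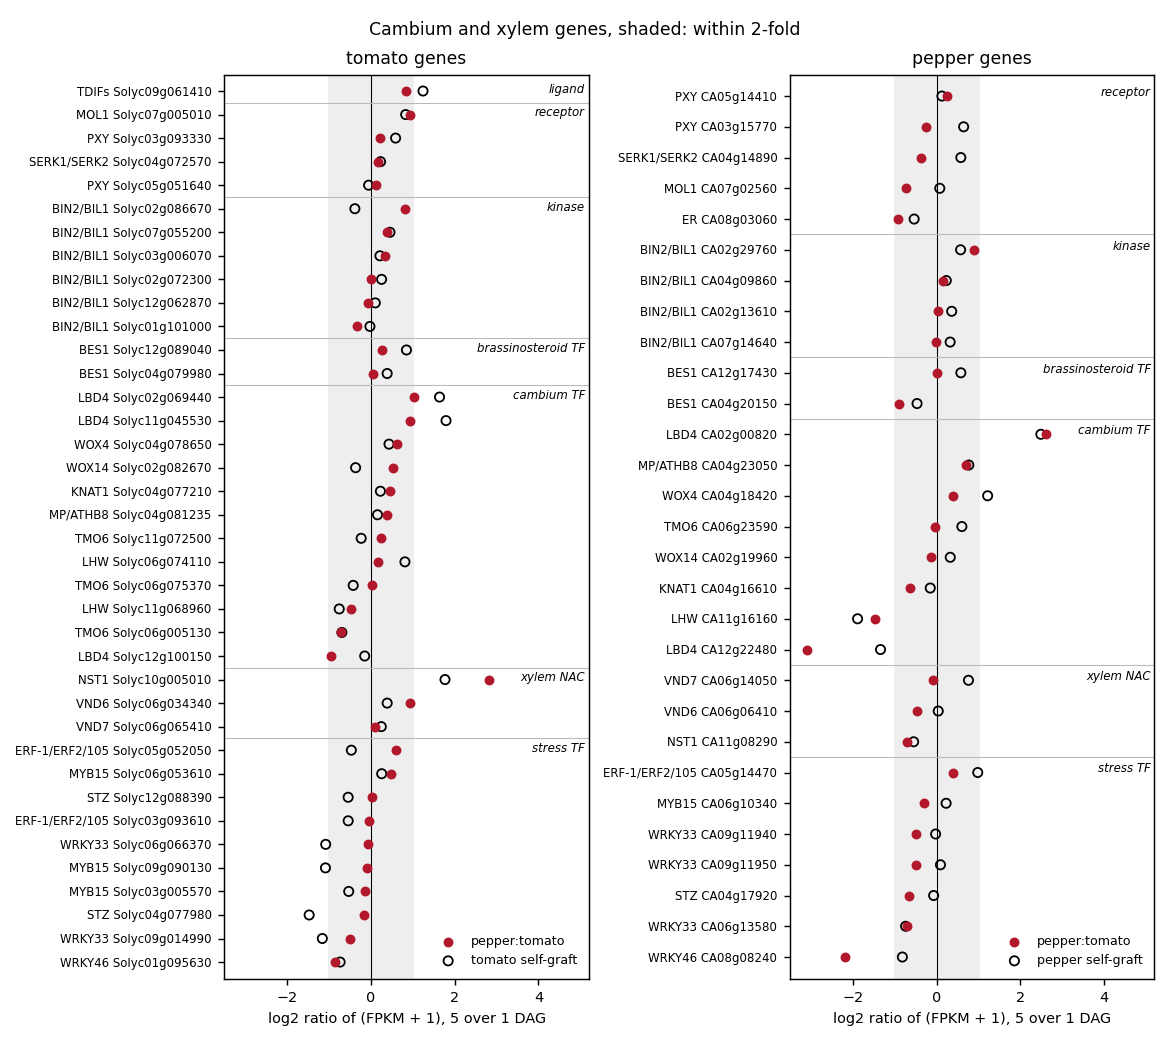
Log2 ratio of FPKM + 1, 5 over 1 DAG, of 38 tomato genes (left) and 29 pepper genes (right) of the cambium and xylem list, grouped by role, in pepper:tomato (filled red) and in the self-graft of the same species (open circles). The grey band is within 2-fold; tomato NST1 and LBD4 and pepper LBD4, LHW and WRKY46 lie outside it in pepper:tomato, and the tomato stress factors lie between -0.86 and 0.59 there.

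The regulators that the study named in its self-graft networks were examined next. Early hubs of the tomato network differed from one another in pepper:tomato. PTI5 (Solyc02g077370), an ERF/AP2 factor, had 10.8 FPKM at both times, with a log2 ratio of -0.36 on the tomato total. In the tomato self-graft PTI5 had 10.7 FPKM at 5 DAG and 46.4 FPKM at 1 DAG, a log2 ratio of -2.02. PTI5 was lower at 5 DAG in tomato:pepper too, with 7.69 FPKM against 59.8 FPKM. NAC104 (Solyc01g104900), known to restrain cell death in forming vessels, had 1.77 FPKM at 5 DAG, against 4.73 FPKM at 1 DAG. In the self-graft NAC104 had 8.22 FPKM at 5 DAG and 60.0 FPKM at 1 DAG. The log2 ratios of NAC104 were -1.05 in pepper:tomato and -2.73 in the self-graft. At 1 DAG tomato genes supplied 17.9% of FPKM in pepper:tomato and 59.5% in tomato:pepper. FPKM levels of a tomato gene are therefore not comparable between grafts, and only ratios within a graft are set side by side. RAP2.6L (Solyc12g042210) and HCA2 (Solyc06g071480), whose Arabidopsis counterparts act in the healing of cut stems and in cambial activity, were both lower. RAP2.6L had 7.88 FPKM at 5 DAG, against 16.9 FPKM at 1 DAG, and HCA2 had 3.41 FPKM against 14.6 FPKM.

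Regulators of the later tomato modules were higher or within 2-fold. JRE4 (Solyc01g090340), an ethylene response factor known for control of steroidal glycoalkaloid synthesis in tomato, had 26.5 FPKM at 5 DAG, against 0.645 FPKM at 1 DAG. Its log2 ratio was 4.06 in pepper:tomato and 4.12 in the tomato self-graft. ERF4 (Solyc01g090560) had 11.3 FPKM at 5 DAG, against 3.50 FPKM at 1 DAG. LBD18 (Solyc01g091420), a callus factor, had 2.64 FPKM at 5 DAG, against 0.213 FPKM at 1 DAG. THOM1 (Solyc01g090460), a homeobox gene of meristems, was within 2-fold at 0.87, as was the xyloglucan endotransglucosylase/hydrolase gene Solyc07g052980 with 81.9 FPKM against 54.2 FPKM. That cell wall gene had a log2 ratio of 2.22 in the self-graft and 1.13 in tomato:pepper.

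Several pepper regulators had low levels. LBD18 (CA01g11210) had 0.634 FPKM at 5 DAG and 0.368 FPKM at 1 DAG, below the limit of 1 FPKM at both times, and MYC2 (CA01g00280), a factor of jasmonate signalling, had 0.148 FPKM and 0.831 FPKM. MYB86 (CA01g20220), linked to lignification, had 1.04 FPKM at 5 DAG, against 0.0968 FPKM at 1 DAG. LBD25 (CA02g30000) had 12.5 FPKM at 5 DAG, against 10.2 FPKM at 1 DAG. It was past 2-fold in the pepper self-graft, at a log2 ratio of 1.38, and in tomato:pepper, at 2.37. Among the cell wall genes XTH22 (CA07g00520) had 2.95 FPKM at 5 DAG, against 0.671 FPKM at 1 DAG, and XTH38 (CA11g08350) had 12.6 FPKM against 55.2 FPKM. The early hub CA01g01880, an ERF, had 1.53 FPKM at 5 DAG, against 4.28 FPKM at 1 DAG, a log2 ratio of -1.06 that became -0.88 after centring. Across this list, which includes targets such as the XTH genes and leaves out the pepper 5 DAG hub LBD4 (CA02g00820) counted above, 3 of 10 tomato genes with 1 FPKM or more were higher and 3 lower, beside 11.6% and 4.64% of all tomato genes. Of 8 such pepper genes 1, XTH22, was higher and 2 were lower, beside 4.82% and 8.01% of all pepper genes.

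Most measured targets of the early self-graft module had log2 ratios below 0 in pepper:tomato, and most of the late modules had ratios above 0. These lists were made by the study from genes that changed between times in the self-grafts, so their direction in a self-graft follows from their choice, while the pepper:tomato libraries had no part in it. A module holds the predicted targets of regulators acting at 1, 3 or 5 DAG. Measured targets are those with 1 FPKM or more in either group, and a target that passes only through the group in which it is high had to differ, so the counts describe the measured targets alone. In tomato, 40 of 66 measured targets of the 1 DAG module (83 in the list) were lower at 5 DAG and 1 was higher. Of 72 measured targets of the 3 DAG module (93 in the list) 43 were higher and 12 lower. Of 79 measured targets of the 5 DAG module (98 in the list) 68 were higher and 0 lower, beside 11.6% and 4.64% of all tomato genes. The medians were -1.10, 1.53 and 2.23 in pepper:tomato, and -2.03, 1.28 and 2.20 for the same genes in the tomato self-graft. Relative to all tomato genes the pepper:tomato medians were -1.20, 1.42 and 2.12. The lists overlap, with 31 genes in both the 3 and 5 DAG modules and 13 in both the 1 and 3 DAG modules.

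The pepper modules had the same signs with smaller medians. In pepper, 72 of 208 measured targets of the 1 DAG module (218 in the list) were lower and 0 higher, beside 8.01% and 4.82% of all pepper genes. The other 136 were within 2-fold, although 201 of the 208 had a ratio below 0. Of 156 measured targets of the 3 DAG module (170 in the list) 79 were higher and 4 lower. Of 127 measured targets of the 5 DAG module (138 in the list) 70 were higher and 11 lower. The medians were -0.70, 1.02 and 1.14 in pepper:tomato and -1.32, 1.73 and 2.14 in the pepper self-graft. Relative to all pepper genes the pepper:tomato medians were -0.52, 1.21 and 1.32, and after centring 56 targets of the 1 DAG module were lower. A median of 0.33, opposite in sign, was found for the pepper targets of the 1 DAG module in the other heterograft. The median over all pepper genes was 0.23 in that graft, which is close to the value of the targets. The 3 and 5 DAG modules of pepper share 75 genes.

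Single targets went against their module, and others changed strongly along with it. Solyc10g084240, a tomato target of the 1 DAG module, had 17.2 FPKM at 5 DAG, against 1.60 FPKM at 1 DAG in pepper:tomato, but 15.7 FPKM against 67.8 FPKM in the self-graft. Solyc05g006310 of the same module had 6.22 FPKM at 5 DAG, against 75.7 FPKM at 1 DAG. In the tomato 5 DAG module the lowest ratio was that of Solyc07g056360, with 8.39 FPKM at 5 DAG, against 10.6 FPKM at 1 DAG. This was within 2-fold, at a log2 ratio of -0.31. Solyc08g067510, beside Solyc08g067500 in the numbering and like it a target of the 3 and 5 DAG modules, had 344 FPKM at 5 DAG, against 1.58 FPKM at 1 DAG. In pepper, CA03g15880 of the 5 DAG module had 7.68 FPKM at 5 DAG, against 80.5 FPKM at 1 DAG, and CA04g20280 stood in both late modules.

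**Figure D4:**
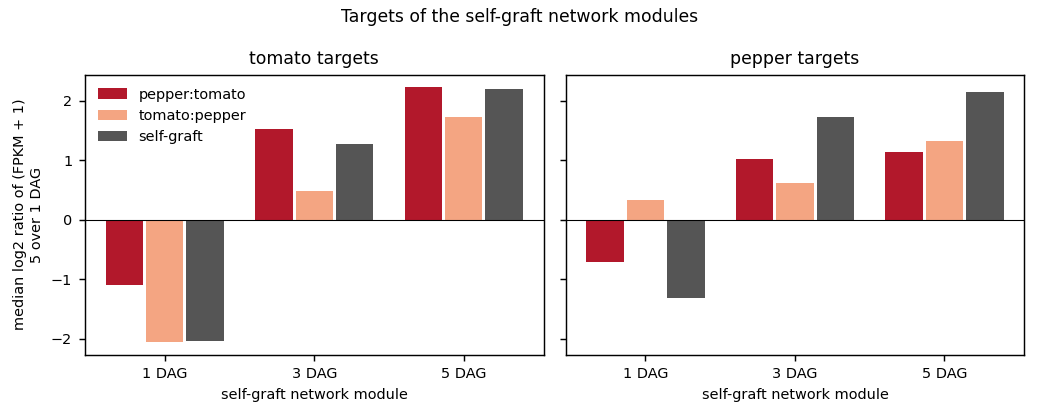
Median log2 ratio of FPKM + 1, 5 over 1 DAG, of tomato targets (left) and pepper targets (right) of the 1, 3 and 5 DAG modules of the self-graft networks, in pepper:tomato (red), tomato:pepper (light) and the self-graft of the species (grey). Only targets with 1 FPKM or more in pepper:tomato are used; in pepper:tomato the tomato medians are -1.10, 1.53 and 2.23 and the pepper medians -0.70, 1.02 and 1.14.

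Transcription regulators of the pepper scion were described by family from part of a list in which the study gave pepper identifiers a family. The study chose these regulators among genes that changed in heterografts, so the number past 2-fold is no independent evidence. Of 192 regulators 180 had 1 FPKM or more, of which 28 were higher and 29 lower, beside 4.82% and 8.01% of all pepper genes, with a median of -0.17. The same shares stand beside each family below, but the counts of the whole list, chosen in the same way, are the closer reference. The median was 1.19 for bZIP factors, with 2 of 4 higher and 0 lower, and 1.14 for LBD factors, which act in callus and vascular tissue, with 3 of 6 higher and 0 lower. CA06g23650 (LBD) had 7.45 FPKM at 5 DAG, against 1.21 FPKM at 1 DAG. No identifier in this part of the list comes after CA10g07860, so the pepper LBD4 gene CA12g22480, which was lower, could not be among these 6. Counts and medians of families describe this part only. Of 8 measured NAC factors 3 were higher and 1 was lower, and that lower gene, CA08g15460, had 62.8 FPKM at 5 DAG, against 265 FPKM at 1 DAG.

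Of 13 measured bHLH factors 6 were lower and 0 higher, with a median of -0.70. Beside this stand 29 lower and 28 higher of the 180 measured regulators, and 8.01% and 4.82% of all pepper genes. CA06g26450 (bHLH) had 3.74 FPKM at 5 DAG, against 23.4 FPKM at 1 DAG. Among 12 ERF factors, which include ethylene response regulators, 4 were lower and 3 higher. CA03g05640 (ERF) had 9.33 FPKM at 5 DAG, against 60.6 FPKM at 1 DAG, and CA05g14230 (ERF) had 84.4 FPKM against 25.8 FPKM. Of 12 WRKY factors 2 were lower and 0 higher, and of 10 C2H2 zinc finger factors 4 were lower and 1 higher. Of 7 heat shock factors (HSF) 0 were past 2-fold, and their median was 0.55. Large changes of both signs also occurred within the MYB family, in which CA06g03930 had 13.4 FPKM at 5 DAG, against 1.37 FPKM at 1 DAG, and CA09g04940 had 24.8 FPKM against 128 FPKM.

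**Figure D5:**
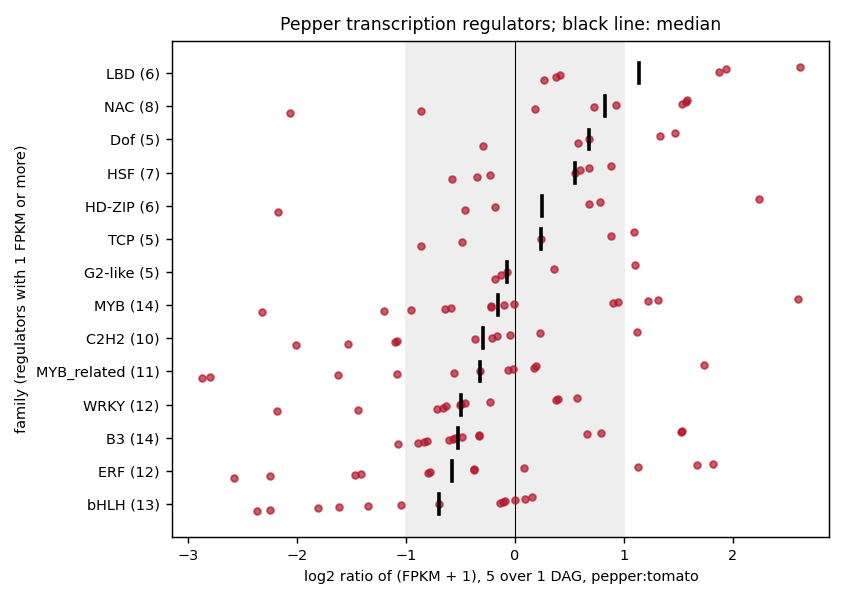
Log2 ratio of FPKM + 1, 5 over 1 DAG in pepper:tomato, of pepper transcription regulators in the families with at least 5 measured members; each point is a gene, the black line the family median and the grey band within 2-fold. The LBD median is 1.14 and the bHLH median -0.70.

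Genes past 2-fold in pepper:tomato were finally set beside the self-graft of their species. At 5 over 1 DAG, 6.72% of all tomato genes were higher and 5.87% lower in the tomato self-graft, and 8.75% of all pepper genes were higher and 8.64% lower in the pepper self-graft. Of 1873 tomato genes higher in pepper:tomato and measured in both grafts, 747 (39.9%) were also higher in the tomato self-graft, 39 were lower there and 1087 within 2-fold. Of 717 tomato genes that were lower, 358 (49.9%) were lower in the self-graft too. The order of these 2 tomato shares depended on the scaling. On the species total they were 47.8% for higher and 35.9% for lower genes, and after centring 43.7% and 44.5%. Of 792 pepper genes that were higher, 520 (65.7%) were higher in the pepper self-graft and 1 was lower, and of 1293 that were lower 473 (36.6%) were lower. Read from the self-graft, the shares were 70.8% of 1055 higher and 39.2% of 913 lower tomato genes, and 39.9% of 1302 higher and 33.1% of 1431 lower pepper genes. More pepper genes higher in the self-graft were within 2-fold in pepper:tomato, 753 of 1302, than past it.

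Some genes with large changes in pepper:tomato were within 2-fold in the self-graft. At 10 FPKM or more, 20 tomato genes were higher by 8-fold or more in pepper:tomato and 8 were lower, while in pepper 1 was higher and 5 lower. Solyc01g091165 had 61.3 FPKM at 5 DAG, against 0.553 FPKM at 1 DAG in pepper:tomato, and 2.44 FPKM against 0.969 FPKM in the tomato self-graft. Solyc04g014320 had 78.0 FPKM at 5 DAG and was listed at 0 at 1 DAG in pepper:tomato, but had 74.1 FPKM against 42.3 FPKM in the self-graft. In tomato:pepper, within the same table, it had 17.1 FPKM at 5 DAG and 85.2 FPKM at 1 DAG. In pepper, CA03g35530 had 19.4 FPKM at 5 DAG, against 190 FPKM at 1 DAG in pepper:tomato, and 220 FPKM against 223 FPKM in the pepper self-graft. CA09g01710 had 42.1 FPKM at 5 DAG, against 3.18 FPKM at 1 DAG, and 8.46 FPKM against 10.3 FPKM in the self-graft. These examples were chosen after their values were seen.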

How the data were processed

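RNA-seq libraries of graft junctions (poly(A) RNA, directional kit) were grouped by the titles and treatment labels, and 2 groups of 4 libraries were compared. The authors trimmed reads with fastq-mcf, aligned them with hisat2 to the joined tomato (ITAG3.2) and pepper (CM334) genomes, the heterograft reference, and deposited FPKM from Cufflinks (run in TuxNet at default settings) as 1 value per group. Tool versions are not given in the sources used here. Their log2 ratio columns, deposited with a code where a group is at 0, and q-value columns were not used. No other columns hold values per sample. Self-graft reads were aligned to the genome of their own species, and self-graft tables were normalized separately. Their levels are therefore not on 1 scale with the heterografts and stand beside them as descriptions only.

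Ratios were computed as log2 of (FPKM + 1) at 5 DAG over (FPKM + 1) at 1 DAG, for genes that reached 1 FPKM in either group, as deposited, rescaled to the total of the species and centred on its median. No tests were run, because no replicate values are in the tables. Named were, per species and direction, the 6 genes of largest ratio at 10 FPKM or more and past 2-fold under all 3 scalings, and the next 3 at 100 FPKM or more, together with list genes past 2-fold, WOX4 and the 2 extreme targets per module and direction. The text gives examples of these. Other list genes are named to describe the pathway. Gene names are those of the study. One identifier stands for both MP and ATHB8 in each species. The transcription factor families (191 of 192 identifiers found), runs of neighbours (window of 5 identifiers) and examples from them were added after the values were seen. Members and lists were chosen with earlier results of these data known. Of 63692 identifiers 0 matched the RefSeq reference, so lists by description and sequences are not given. The steps were tested on simulated data. Alternatives were pseudocounts of 0.1 and 5 FPKM, no filter or 5 FPKM, both rescalings and a log2 threshold of 2. Python 3.11.15, pandas 2.3.3, numpy 2.4.6 and matplotlib 3.10.9 were used.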

Additional observations from a re-analysis of the deposited data

How the results depend on the processing

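No direction of a gene named past 2-fold was reversed under the alternatives run for single genes, and a gene list was counted as moved where its median changed by more than 1.5-fold. Of the alternative values of the main counts, medians and shares, 98 stayed within 1.5-fold and 24 did not. With a pseudocount of 5 FPKM, 834 tomato genes were higher and 259 lower, and 380 pepper genes were higher and 613 lower. With 0.1 FPKM, 1183 tomato genes were lower. At a log2 threshold of 2, 514 tomato genes were higher and 171 lower, 126 pepper genes were higher and 195 lower, and the shares also lower in the self-graft were 31.1% in tomato and 16.6% in pepper. With a filter of 5 FPKM, 501 tomato genes were lower. On the tomato total 1256 were higher and 1426 lower, and after centring 882 pepper genes were lower. The median of tomato 1 DAG targets was -1.76 with a filter of 5 FPKM. That of 3 DAG targets was 2.30 and 0.91 with pseudocounts of 0.1 and 5 FPKM, 0.82 without a filter and 2.79 with the filter of 5 FPKM. That of 5 DAG targets was 3.43 and 1.10 with these pseudocounts and 2.98 with that filter. The median of pepper regulators was -0.89 with the filter of 5 FPKM, with fewer genes left. Of 61 genes named past 2-fold, 53 stayed past it with a pseudocount of 5 FPKM, 60 on the species total and 59 after centring. No paired analysis was possible because the columns carry no replicate, and for the same reason leaving out replicates was not run. Depth is unknown, so the precision of low FPKM values cannot be given.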

Other observations

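The kinases named BIN2/BIL1, which act below the TDIF receptor, had lower shares of tomato FPKM in pepper:tomato than in the tomato self-graft. Low values were not particular to pepper:tomato. At 5 DAG the 6 tomato genes had 3.49 to 18.6 FPKM in pepper:tomato, of a tomato sum of 284008. In tomato:pepper they had 4.55 to 36.5 FPKM, of a tomato sum of 554754. At 5 DAG the 6 tomato genes held 12.3 to 65.4 FPKM in 1000000 of tomato FPKM in pepper:tomato and 24.4 to 270 in the tomato self-graft. The gap was largest for Solyc01g101000, with 35.0 in pepper:tomato and 270 in the self-graft. The 4 pepper genes of this name held 38.2 to 204 FPKM in 1000000 of pepper FPKM in pepper:tomato and 21.4 to 173 in the pepper self-graft. These levels come from tables normalized separately. Self-graft reads were aligned to the genome of their own species and heterograft reads to the joined genomes. The part of this difference in alignment was not tested.

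Several tomato genes were listed at 0 in pepper:tomato in only 1 of the groups. At 1 DAG, 27 tomato genes listed at 0 had 10 FPKM or more at 5 DAG, and 3 had the opposite pattern. In pepper these numbers were 2 and 1. Of the 27 tomato genes, 2 had 10 FPKM or more in all the other heterograft groups. A value of 0 in such tables can be a failed estimate, which was not tested.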
